A study of Schizosaccharomyces pombe with 4 samples.

Results

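The genes described here are 10 fission yeast genes transcribed at the G1/S transition by the transcription factor MBF (MluI cell-cycle box binding factor): cdc18, cdt1, cdt2, cig2, mik1, tos4, suc22, nrm1, cdc22 and mrc1. They were chosen by name, as known MBF targets, from 5112 protein-coding genes that could be placed on the arrays. The choice was made with earlier results of these data known. All 10 had enough probes to be tested, with 91 probes in their bodies and 33 in the 1 kb upstream of their starts.

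MBF binds MluI cell-cycle boxes, short elements built on ACGCG, in the promoters of its targets and switches them on as cells pass from G1 into S phase. The products license origins, start S phase, make deoxyribonucleotides and guard stalled forks. The co-repressor Nrm1, itself an MBF target, shuts the factor off later in S phase. When replication stalls, the kinase Rad3 acts through Cds1 to keep these genes transcribed, as is known from fission yeast.

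The study mapped the recombination protein Rad52 by chromatin immunoprecipitation (ChIP) on tiling arrays in Schizosaccharomyces pombe. Rad52 loads the strand exchange protein onto single-stranded DNA at broken or stalled forks. The first group was cdc25-22 rif1Δ rad3Δ, which lacks Rif1, a protein that limits origin firing, and the checkpoint kinase Rad3. The second was cdc25-22 rif1Δ, which lacks Rif1 alone, and each group had 2 arrays. All cells carried cdc25-22, an allele that holds cells before mitosis at high temperature. Per the labels, cultures were held at 36.5 °C for 4 h, released at 25 °C and treated with 6 mM hydroxyurea, a drug that inhibits ribonucleotide reductase. No strain with Rif1 and no ChIP without Rad52 was analysed here, so enrichment that does not come from Rad52 cannot be told apart. Whether the replicates came from separate cultures is not given in the labels, so each p-value rests on array-to-array spread that may be technical only.

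Values are log2 of ChIP over input signal, centred on each array's median over nuclear probes, so that 0 is the middle of the genome. On every array, 96.2% to 99.8% of probes exceeded background clearly in a given channel, and the number of arrays limits the precision. The probe values spread more widely on the rif1Δ rad3Δ arrays, with SDs of 0.576 and 0.649, than on the rif1Δ arrays, with 0.431 and 0.439. The noise between neighbouring probes was highest, at 0.451, on rif1Δ rad3Δ replicate 2, against 0.311 to 0.321 on the other arrays, and that array alone was read with the ChIP protocol of the scanner software. Across probes, which are not replicates, arrays of one strain correlated at 0.729 in rif1Δ rad3Δ and 0.467 in rif1Δ. Arrays of different strains correlated at 0.433 and 0.425 where the replicate number was the same, and at 0.357 and 0.252 where it was not. In the input channel, the deleted gene rad3 read 5.46% and 3.35% of the median in rif1Δ rad3Δ, although the labels give that input as cdc25-22, and 81.3% and 81.5% in rif1Δ. Probes in rif1 were at 5.01% of the median or less in both channels of all 4 arrays.

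The promoters of cdt1, cdt2, tos4, cdc22 and mrc1 are shown because they hold the full MluI box ACGCGT within 250 bp of the gene start. A further reason is that the bodies of cdt1, tos4 and cdc22 passed the test between the strains described below. Each sequence is the stretch that ends at the base before the annotated start, 5′ to 3′ on the gene's strand, from the reference genome ASM294v3. Capitals mark ACGCG read on either strand.
cdt1 (chrII:477242-477391, plus strand): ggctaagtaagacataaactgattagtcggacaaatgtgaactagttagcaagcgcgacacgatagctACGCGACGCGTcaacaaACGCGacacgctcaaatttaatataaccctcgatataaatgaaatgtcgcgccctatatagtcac
cdt2 (chrI:2035705-2035854, minus strand): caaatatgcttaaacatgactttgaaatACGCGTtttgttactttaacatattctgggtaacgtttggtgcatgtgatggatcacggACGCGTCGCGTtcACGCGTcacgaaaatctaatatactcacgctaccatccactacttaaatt
tos4 (chrI:1922393-1922542, plus strand): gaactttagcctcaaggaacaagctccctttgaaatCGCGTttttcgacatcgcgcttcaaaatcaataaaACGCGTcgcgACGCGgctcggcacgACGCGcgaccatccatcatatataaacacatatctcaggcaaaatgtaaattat
cdc22 (chrI:4226820-4226969, plus strand): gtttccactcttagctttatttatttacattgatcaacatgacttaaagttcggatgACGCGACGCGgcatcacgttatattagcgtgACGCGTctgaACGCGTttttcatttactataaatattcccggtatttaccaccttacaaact
mrc1 (chrI:4212389-4212475, minus strand): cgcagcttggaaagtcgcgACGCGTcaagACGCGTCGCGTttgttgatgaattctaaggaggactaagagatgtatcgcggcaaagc

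The boxes stood close to the starts and close together. The nearest ACGCG of cdc22 began 52 bp and the farthest 93 bp before the start, and in tos4 they lay between 54 and 114 bp before it. In cdt1 the 3 copies lay between 65 and 82 bp before the start. Counting both strands, and an ACGCGT once for the ACGCG it holds, 8 of the 10 genes had 3 or more ACGCG within 250 bp upstream, against 17 of 5113 genes in the genome (0.332%). The counts were 6 in cdc18, 5 in cig2, 4 each in cdt2, tos4 and cdc22, and 3 each in cdt1, nrm1 and mrc1. In mik1 and suc22 these letters were not found in that window, and suc22 had 1 ACGCGT within 1 kb. The full ACGCGT was within 250 bp in 5 of the 10, against 2.64% of all genes. A match of letters is a description of the sequence and does not show that MBF was bound.

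Over the gene bodies, the Rad52 signal was lower in rif1Δ rad3Δ than in rif1Δ at tos4, cdc22 and cdt1, which lay 1.89-fold, 1.85-fold and 1.81-fold below. These 3 of the 10 genes passed the test between the strains in that direction (limma across 4863 genes, adjusted p below 0.05), where 12.2% of all genes did. None of the 10 passed as higher, against 10.7% of all genes. The differences of 9 of the 10 genes were below 0, with suc22 the exception, as were those of 53.9% of all genes. The median of the 10 was -0.38 on the log2 scale, against -0.04 over all genes tested. Both rif1Δ rad3Δ arrays lay below both rif1Δ arrays at 7 of the 10 bodies, as they did at 37.2% of all bodies, and above them at none of the 10, as they did at 30.2% of all bodies. The calls of tos4, cdc22 and cdt1 held under every alternative that could be fitted, with adjusted p of 0.00146 to 0.0472, 0.00153 to 0.0474 and 0.00177 to 0.0415. With 1 array left out, the median difference of the 10 genes ranged from -0.28 to -0.56, against -0.02 to -0.05 over all genes. Over all genes, the main setting called 521 higher and 594 lower, background correction with normexp 255 and 462, and removal of the A+T trend 511 and 384.

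**Figure D1:**
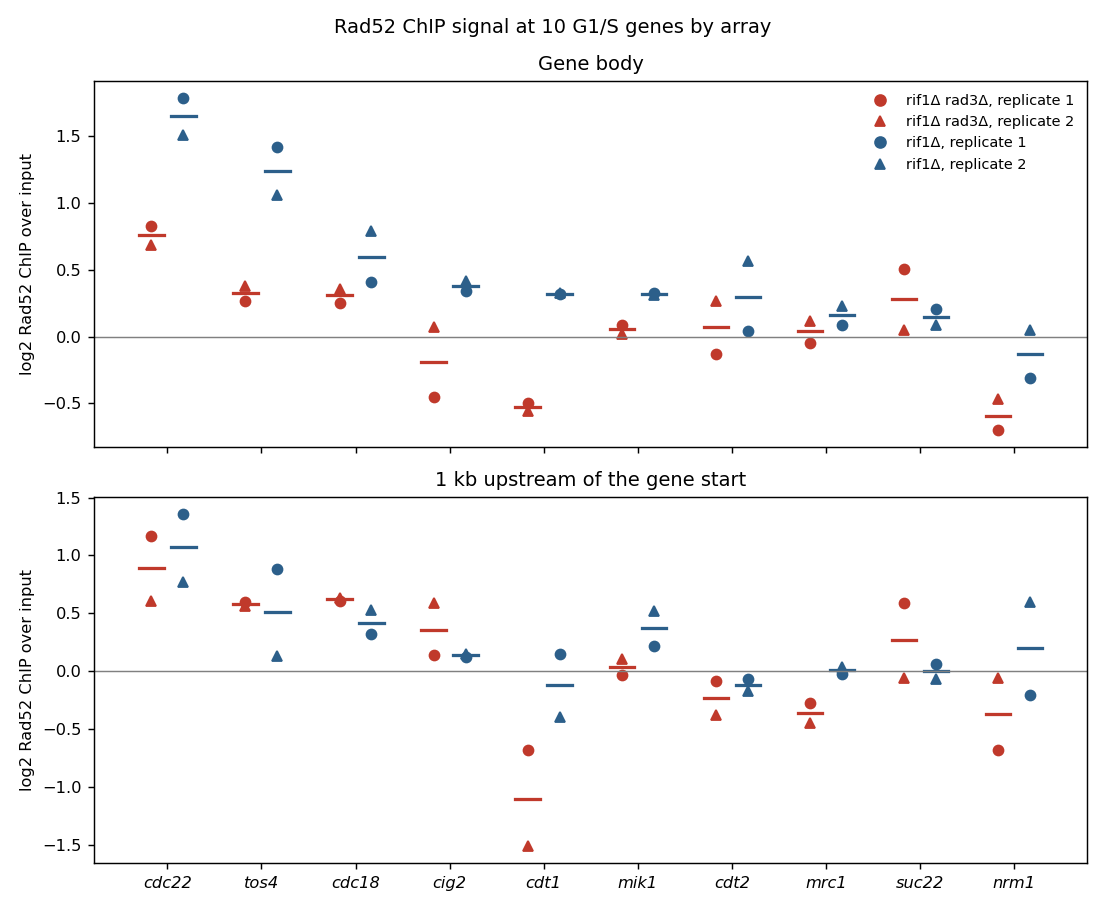
Rad52 ChIP over input (log2, y axis) in the body (top) and the 1 kb upstream (bottom) of each of the 10 genes, rif1Δ rad3Δ in red to the left of rif1Δ in blue. Circles are replicate 1, triangles replicate 2 and bars the strain means; over the bodies of cdc22, tos4 and cdt1 all red points lie well below all blue points, while upstream only cdt1 passed the test between the strains.

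Ribonucleotide reductase makes the deoxyribonucleotides for replication, and cdc22 encodes its large subunit. The body of cdc22 (SPAC1F7.05, chromosome I, 4226970 to 4229989, plus strand, 11 probes) had the highest signal of the 10 genes in both strains. Its log2 values were 0.83 and 0.69 in rif1Δ rad3Δ, against 1.79 and 1.51 in rif1Δ. The highest rif1Δ rad3Δ array was thus below the lowest rif1Δ array. The difference was -0.89 ± 0.14 (SE, adjusted p = 0.0132), and -0.96 between the arrays of replicate 1, which shared a slide. The level in rif1Δ, 1.65 ± 0.20 (SD, n = 2), was 3.14-fold over the array median and above that of 99.8% of genes, while in rif1Δ rad3Δ it was 0.76 ± 0.10 (SD, n = 2), above that of 95.8% of genes. All 11 body probes were lower on both rif1Δ rad3Δ arrays than on both rif1Δ arrays. The highest rif1Δ probe, 1534 bp into the gene, had 0.96 and 1.16 in rif1Δ rad3Δ, against 2.09 and 2.03 in rif1Δ.

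The small subunit is encoded by suc22 (SPBC25D12.04, chromosome II, 3721623 to 3723072, plus strand, 6 body probes). Its body had 0.51 and 0.05 in rif1Δ rad3Δ, against 0.21 and 0.09 in rif1Δ, so the strains overlapped. The difference was 0.13 ± 0.17 (SE, adjusted p = 0.596). Unlike cdc22, suc22 did not pass against the array median in either strain, though the difference between these genes was not tested. None of the 6 body probes of suc22 was lower on both rif1Δ rad3Δ arrays.

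Origin licensing is the loading of the MCM helicase by Cdc18 and Cdt1 before S phase. At the body of cdt1 (SPBC428.18, chromosome II, 477392 to 478738, plus strand, 5 probes) the values were -0.50 and -0.56 in rif1Δ rad3Δ, against 0.32 and 0.33 in rif1Δ. The arrays of each strain were close to each other, and the strains lay on opposite sides of the genome's middle. The difference was -0.85 ± 0.11 (SE, adjusted p = 0.0123), and -0.82 between the arrays on one slide. All 5 body probes were lower on both rif1Δ rad3Δ arrays. The signal of cdt1 was thus below the array median in rif1Δ rad3Δ, at -0.53 (adjusted p = 0.00217), and its level of 0.32 in rif1Δ did not pass (adjusted p = 0.0578).

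At cdc18, which encodes the protein that recruits the helicase to origins (SPBC14C8.07C, chromosome II, 2215955 to 2217984, minus strand, 6 body probes), the body had 0.25 and 0.36 in rif1Δ rad3Δ, against 0.41 and 0.79 in rif1Δ. The strains did not overlap, but the difference of -0.29 ± 0.15 (SE) did not pass (adjusted p = 0.195). The adaptor of a ubiquitin ligase that marks Cdt1 and a reductase inhibitor for destruction is encoded by cdt2 (SPAC17H9.19C, chromosome I, 2033768 to 2035704, minus strand, 6 body probes). Its body had -0.13 and 0.27 in rif1Δ rad3Δ, against 0.04 and 0.57 in rif1Δ, and the strains overlapped (difference -0.23 ± 0.21 SE, adjusted p = 0.436). The promoter of cdt2 held 3 copies of ACGCGT within 250 bp, more than any other of the 10.

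The kinase Cdc2 drives S phase with the cyclin Cig2 and is held back by the kinase Mik1. The annotated cig2 gene (SPAPB2B4.03, chromosome I, 2709782 to 2714162, plus strand, 16 body probes) had -0.45 and 0.07 in rif1Δ rad3Δ, against 0.34 and 0.42 in rif1Δ. The strains did not overlap, and the rif1Δ rad3Δ arrays stood apart from each other. The difference was -0.57 ± 0.18 (SE, adjusted p = 0.0567). Only 5 of its probes lie in its coding span. Taken over that span alone, a choice made after seeing the data, cig2 passed with a difference of -0.75 (adjusted p = 0.0477), which made 4 called genes of the 10. Over coding spans, 605 of 4519 genes were called lower and 393 higher. The long untranslated part of cig2 overlaps pmc1, on the opposite strand, whose own body differed by -0.54 ± 0.12 (SE, adjusted p = 0.0258).

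At mik1 (SPBC660.14, chromosome II, 221298 to 224117, plus strand, 11 body probes) the body had 0.09 and 0.02 in rif1Δ rad3Δ, against 0.33 and 0.31 in rif1Δ. The strains did not overlap, but the difference of -0.26 ± 0.11 (SE) did not pass (adjusted p = 0.129). Mrc1 travels with the fork and passes the checkpoint signal on to Cds1. The mrc1 body (SPAC694.06C, chromosome I, 4209203 to 4212388, minus strand, 12 probes) had -0.05 and 0.12 in rif1Δ rad3Δ, against 0.09 and 0.23 in rif1Δ. The strains overlapped, and the difference was -0.12 ± 0.13 (SE, adjusted p = 0.504).

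Nrm1 represses MBF, and Tos4 is a protein with a forkhead-associated domain. At tos4 (SPAP14E8.02, chromosome I, 1922543 to 1924915, plus strand, 7 body probes) the body had 0.27 and 0.38 in rif1Δ rad3Δ, against 1.42 and 1.06 in rif1Δ. The strains were far apart, and in rif1Δ tos4 was second of the 10 genes, above 99.5% of all genes, with 1.24 ± 0.26 (SD, n = 2). The difference of -0.92 ± 0.15 (SE, adjusted p = 0.014) was -1.15 between the arrays on one slide. Of the 7 body probes, 6 were lower on both rif1Δ rad3Δ arrays. The highest rif1Δ probe, 1500 bp into the gene, had 0.41 and 0.15 in rif1Δ rad3Δ, against 2.17 and 1.0 in rif1Δ.

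The body of nrm1 (SPBC16A3.07C, chromosome II, 4285944 to 4288583, plus strand, 11 probes) had -0.70 and -0.47 in rif1Δ rad3Δ, against -0.31 and 0.05 in rif1Δ. It was the lowest of the 10 in both strains. The strains did not overlap, but the difference of -0.46 ± 0.16 (SE) did not pass (adjusted p = 0.0746). Its annotated 3′ part overlaps tad1 on the opposite strand, whose body differed by -0.41 ± 0.17 (SE, adjusted p = 0.121).

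Set against the array median, the bodies of cdc22 (0.76), tos4 (0.33) and cdc18 (0.31) passed as enriched in rif1Δ rad3Δ, as did 24.8% of all genes, and cdt1 (-0.53) and nrm1 (-0.59) as depleted, as did 28.6% of all genes. In rif1Δ the enriched genes were cdc22 (1.65, adjusted p = 0.000387), tos4 (1.24, adjusted p = 0.00147) and cdc18 (0.60, adjusted p = 0.0255), against 5.28% of all genes, and none of the 10 passed as depleted, against 1.85%. With all arrays scaled to one spread, rif1Δ had 510 genes called higher and 362 lower, against 257 and 90. The call of cdc18 in rif1Δ was lost without rif1Δ replicate 2 (0.41), and the calls of tos4 and cdc18 in rif1Δ rad3Δ without either array of that strain, with normexp (0.22 and 0.24) and with one spread (0.26 and 0.25). In rif1Δ the order of the bodies was cdc22, tos4, cdc18, cig2, then cdt1 and mik1, cdt2, mrc1, suc22 and nrm1. The arrays of cdc22 did not overlap those of tos4, nor those of tos4 the ones of cdc18, whereas from cdc18 down to suc22 each gene overlapped the next except cig2 and cdt1, whose ranges nearly touched. In rif1Δ rad3Δ the order was cdc22, tos4, cdc18, suc22, cdt2, mik1, mrc1, cig2, cdt1 and nrm1, and below cdc22 each gene overlapped the next except cig2 and cdt1.

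The ratio has both channels behind it, so the signals were also examined apart, as a percentage of each array's median. The ChIP signal over tos4 was 120% and 125% in rif1Δ rad3Δ, against 273% and 186% in rif1Δ. The input signal over tos4 was 100% and 97.4% in rif1Δ rad3Δ, against 103% and 91.6% in rif1Δ. At tos4 the ChIP channel therefore differed between the strains while the input values overlapped. For cdc22 the ChIP signal was 190% and 166% in rif1Δ rad3Δ, against 368% and 280% in rif1Δ, with input signals of 107% and 104%, against 107% and 102%. For cdt1 the ChIP signal was 49.3% and 61.9% in rif1Δ rad3Δ, against 97.9% and 107% in rif1Δ, with input signals of 70.4% and 92.7%, against 79.3% and 88.0%. The input of cdt1 varied between arrays of one strain, and its ranges overlapped between the strains.

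Probe by probe, 55 of the 91 body probes (60.4%) and 9 of the 33 upstream probes (27.3%) were lower on both rif1Δ rad3Δ arrays than on both rif1Δ arrays, which is 51.6% of all 124. Over all 42548 probes that share was 27.8%, and it was not computed for body or upstream probes apart. Of whole windows, 37.2% of all bodies and 22.4% of all upstream windows were lower in this way. The opposite order held at 10 of the 124 probes (8.1%), against 25.6% of all probes. Neighbouring probes of a gene share DNA fragments and are not independent.

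**Figure D2:**
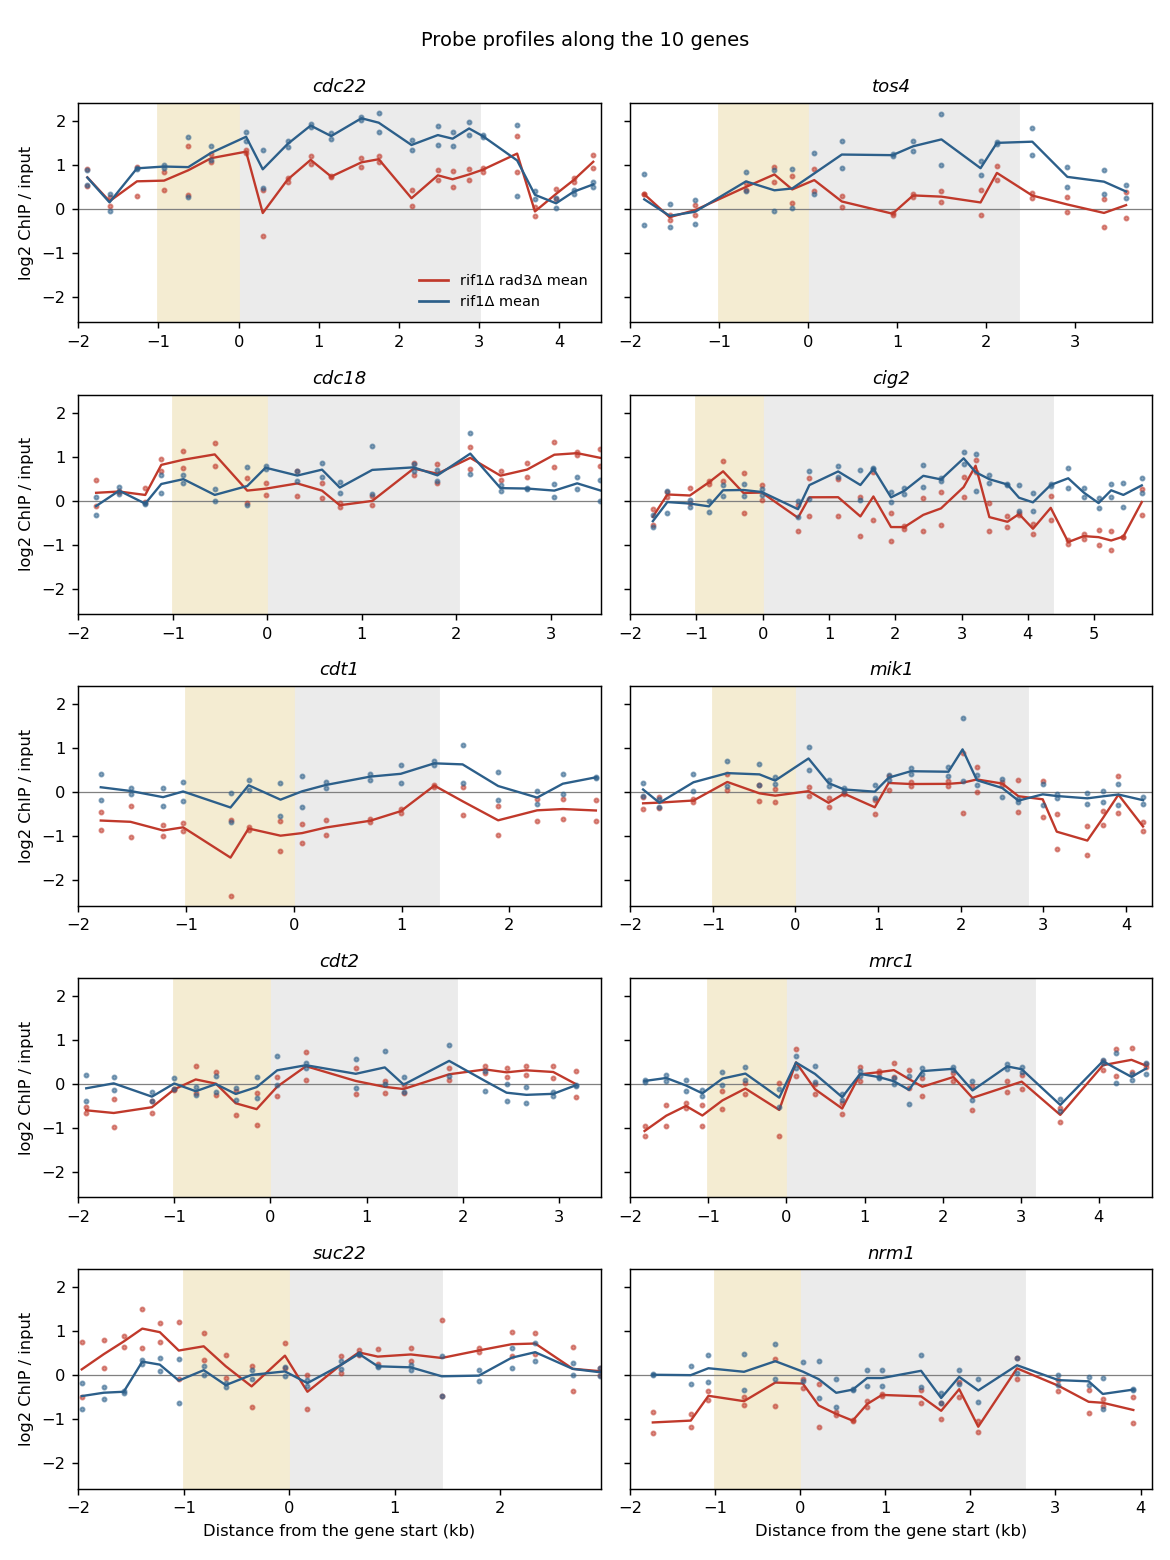
Probe values (log2 ChIP over input) along each of the 10 genes and their surroundings against the distance from the gene start in kb, in the direction of transcription; dots are single arrays, lines strain means, rif1Δ rad3Δ in red and rif1Δ in blue. The 1 kb upstream is shaded yellow and the body grey. At cdc22 and tos4 the lines part over the body and meet upstream, and at cdt1 they run apart through the whole window. Past the end of tos4 the lines stay apart, with means of 0.307 in rif1Δ rad3Δ against 1.53 in rif1Δ at 2522 bp, and 0.09 against 0.399 at 3576 bp. At cdc22 the first probe past the end, at 3046 bp, has 0.892 against 1.66.

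Upstream of the genes, only cdt1 passed the test between the strains. Its 3 upstream probes averaged -0.68 and -1.51 in rif1Δ rad3Δ, against 0.15 and -0.39 in rif1Δ. The strains did not overlap, and the arrays of each strain were far apart. The difference was -0.98 ± 0.27 (SE, adjusted p = 0.0299), and -0.84 between the arrays on one slide. It was 1 of the 10 genes called lower, where 4.94% of 5019 genes were, and none of the 10 was called higher, where 16.8% of all genes were. The call rested on rif1Δ rad3Δ replicate 2, without which the difference was -0.57, and it was lost with normexp (-0.34), with one spread for all arrays (-0.72), with the probe median (-0.82) and with centring on the mode (-0.94).

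The other upstream values did not pass. Those of cdc22 were high in both strains, with 1.17 and 0.61 in rif1Δ rad3Δ, against 1.36 and 0.77 in rif1Δ (difference -0.17 ± 0.25 SE, adjusted p = 0.642). Those of tos4 were 0.60 and 0.56 in rif1Δ rad3Δ, against 0.88 and 0.13 in rif1Δ (difference 0.07 ± 0.24 SE, adjusted p = 0.853). In both genes the strains overlapped upstream. The median upstream difference of the 10 genes was -0.14, against 0.13 over all genes, and 6 of the 10 were below 0, against 39.7% of all genes. That median turned to 0.01 without rif1Δ replicate 1 and to 0.02 without rif1Δ rad3Δ replicate 2, with 5 and 4 of the 10 below 0. Both rif1Δ rad3Δ arrays lay below both rif1Δ arrays upstream of 3 genes (22.4% of all genes) and above them upstream of 1 (41.8% of all genes). Removing the A+T trend moved the median of all genes to 0.019, and then 525 genes were called higher and 309 lower, against 845 and 248 in the main setting. The upstream windows were A+T richer than the bodies in 7 of the 10 genes, at 60.7% to 69.3% against 58.9% to 65.1%. The upstream probes of mik1 and mrc1 all lay inside the neighbouring genes ssb1 and spt6, and 2 of the 4 upstream probes of cig2 in grx5. Other genes also held 2 of the 4 upstream probes of cdc18, 1 of the 4 of cdt2 and 1 of the 2 of nrm1. At cdc18, the 1 gene with both rif1Δ rad3Δ arrays above both rif1Δ arrays upstream, the difference was 0.20 with all 4 probes and -0.29 with the 2 outside other genes, and neither passed.

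**Figure D3:**
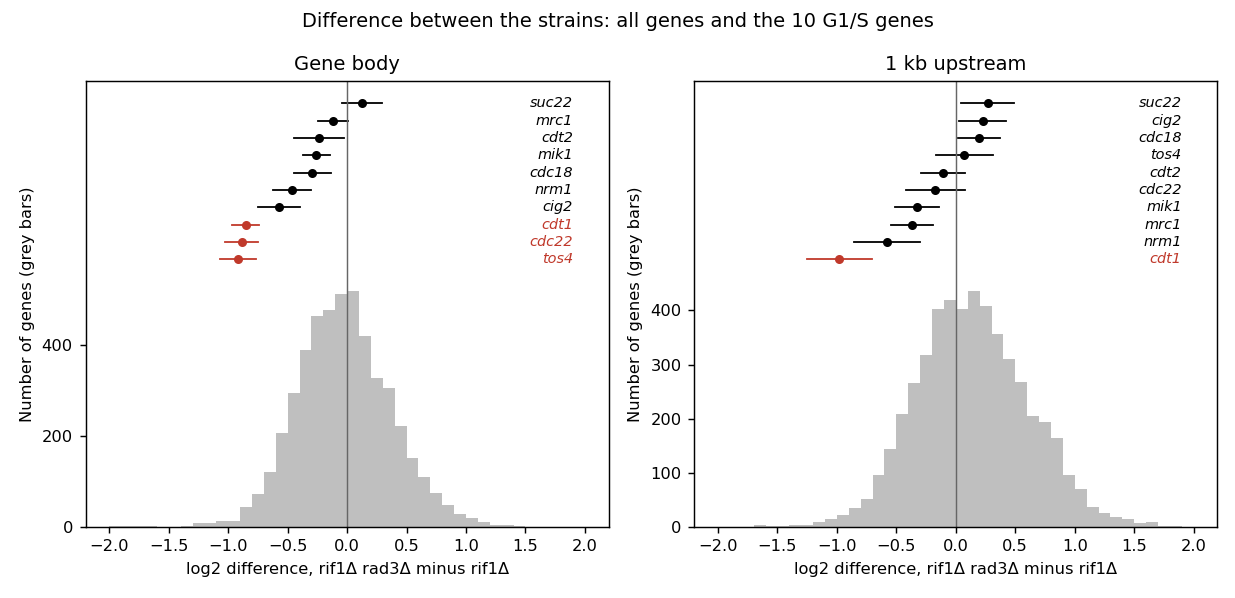
Difference between the strains (log2, rif1Δ rad3Δ minus rif1Δ, x axis) over gene bodies (left) and 1 kb upstream windows (right). Grey bars count all genes tested, points with SE bars are the 10 genes in order of their difference, red where adjusted p was below 0.05. Below 0 lie 9 of the 10 body points (53.9% of all genes) and 6 of the 10 upstream points (39.7% of all genes).

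Upstream and body were then set against each other within each array. At tos4 the upstream value minus the body value was 0.32 and 0.18 in rif1Δ rad3Δ, against -0.54 and -0.93 in rif1Δ. The body was thus the higher part in rif1Δ alone, where the mean of -0.74 passed (adjusted p = 0.0322), while the mean of 0.25 in rif1Δ rad3Δ did not (adjusted p = 0.24). It was 1 gene of the 10 called lower in rif1Δ, where 1.45% of 4832 genes were, and none was called higher, where 0.973% were. The call of tos4 in rif1Δ was lost without either rif1Δ array.

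At cig2 the values were 0.58 and 0.52 in rif1Δ rad3Δ, against -0.21 and -0.28 in rif1Δ. The arrays of each strain were close together and the strains had opposite signs. The mean of 0.55 in rif1Δ rad3Δ passed (adjusted p = 0.0166), as the sole one of the 10 called higher there, where 19.0% of all genes were, and none was called lower, where 7.04% were. In rif1Δ rad3Δ the call of cig2 was lost without either array of that strain (0.52 and 0.58), with normexp (0.31), with one spread (0.45), with 500 bp upstream (0.37) and when its probes inside grx5 were left out (0.37). At cdc22 the values were 0.34 and -0.08 in rif1Δ rad3Δ, against -0.44 and -0.73 in rif1Δ, and at cdc18 they were 0.36 and 0.27, against -0.09 and -0.26. Neither gene overlapped between the strains, with the upstream probes of cdc18 that lie in another gene included. At the other genes no strain mean passed. The means in rif1Δ rad3Δ and rif1Δ were both negative at cdt1 (-0.57 and -0.44), cdt2 (-0.30 and -0.43), mrc1 (-0.40 and -0.15) and suc22 (-0.01 and -0.15). They were both positive at nrm1 (0.21 and 0.33), and mik1 had -0.01 and 0.05.

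The test of whether upstream minus body differed between the strains passed at tos4 (0.99 ± 0.21 SE, adjusted p = 0.039) and cig2 (0.80 ± 0.19 SE, adjusted p = 0.0486), 2 of the 10 genes, where 3.77% of all genes passed as higher and 0.331% as lower. It did not pass at cdc22 (0.72 ± 0.22 SE, adjusted p = 0.0919) or cdc18 (0.49 ± 0.20 SE, adjusted p = 0.169). With the replicate number as a block both passed (adjusted p = 0.00141 at cdc22 and 0.0391 at cdc18). That setting called 993 of 4832 genes higher and 210 lower, against 182 and 16 in the main setting. Under loess (0.92) and normexp (0.91) cdc22 also passed, where 488 and 272 of all genes were called higher and 61 and 48 lower. Without rif1Δ rad3Δ replicate 2 the difference of cdc22 was 0.92. At cdc18 the difference was 0.0 when upstream probes inside another gene were left out. Both rif1Δ rad3Δ arrays lay above both rif1Δ arrays at 5 genes and below them at 1, where 39.5% and 14.1% of all genes did. The median of the 10 genes was 0.13, against 0.15 over all genes, and the median of all genes moved to 0.022 without the A+T trend. The median of the 10 was 0.37 without rif1Δ rad3Δ replicate 2, 0.06 without rif1Δ rad3Δ replicate 1, 0.30 without rif1Δ replicate 1 and 0.42 with normexp. The call of tos4 was lost with the A+T trend removed (0.76), with one spread (1.16) and without rif1Δ replicate 2 (0.79). The call of cig2 was lost without any 1 of the 4 arrays (0.76 to 0.83), with normexp (0.53), one spread (0.77), the A+T trend removed (0.78), the probe median (0.80) and 500 bp upstream (0.53), and when its probes inside grx5 were left out (0.53).

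**Figure D4:**
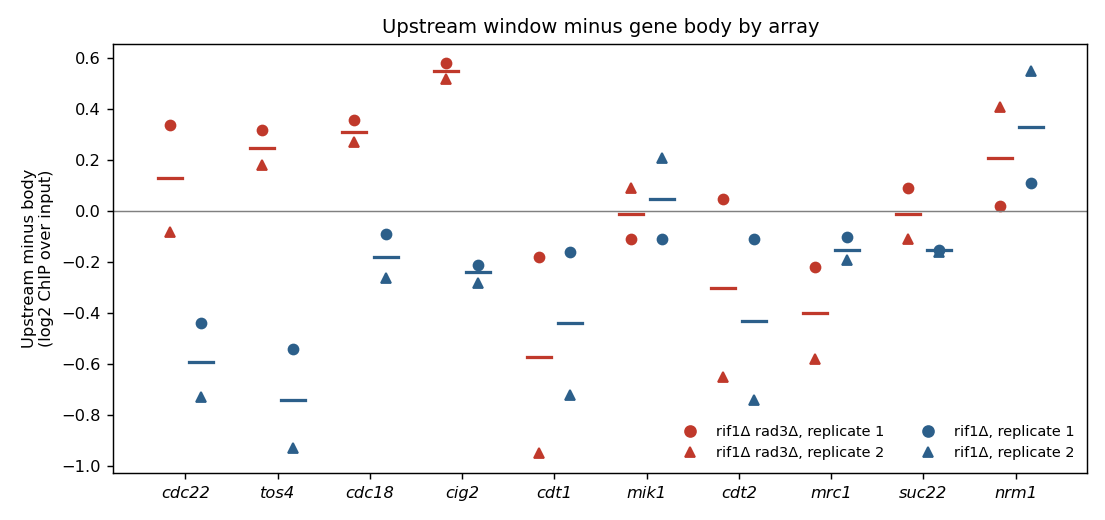
Upstream value minus body value (log2 ChIP over input, y axis) for each of the 10 genes by array, rif1Δ rad3Δ in red to the left of rif1Δ in blue, circles for replicate 1, triangles for replicate 2 and bars for strain means. Points above 0 are arrays with more signal upstream than in the body. At tos4, cig2 and cdc18 both red points lie above 0 and both blue points below it, a split whose share over all genes was not computed.

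The genes beside the 10 were examined next, because the strains also differed there. Beside cdt1, the cohesin release gene wpl1 upstream had -0.59 and -1.06 in rif1Δ rad3Δ, against 0.27 and -0.11 in rif1Δ (difference -0.91 ± 0.20 SE, adjusted p = 0.0234), and utp15, a ribosome assembly gene downstream, differed by -0.59 ± 0.15 (SE, adjusted p = 0.033). Both neighbours of cdt1 were thus lower too. Beside cdc18 both neighbours were higher, with tam10 at 0.73 and 1.13 in rif1Δ rad3Δ, against 0.28 and 0.39 in rif1Δ (difference 0.60 ± 0.16 SE, adjusted p = 0.0356), and the actin nucleation gene arc1 at 0.59 ± 0.14 (SE, adjusted p = 0.0278). Beside cdc22 neither rho1 (-0.21 ± 0.13 SE, adjusted p = 0.261) nor hsp3105 (0.32 ± 0.11 SE, adjusted p = 0.0802) passed, and beside tos4 neither pss1 (-0.43 ± 0.15 SE, adjusted p = 0.0727) nor bos1 (-0.48 ± 0.17 SE, adjusted p = 0.0821). Beside nrm1 and mrc1, oga1 (-0.85 ± 0.17 SE, adjusted p = 0.0194) and spt6 (-0.68 ± 0.11 SE, adjusted p = 0.014) were lower.

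A test of each body minus the mean of its neighbouring bodies was added after these values were seen, with 4493 genes and 8 of the 10 testable, without cdt2 and mrc1. It passed as lower in rif1Δ rad3Δ at cdc22 (-0.95 ± 0.16 SE, adjusted p = 0.0284) and cdc18 (-0.89 ± 0.16 SE, adjusted p = 0.0332), where 1.51% of all genes passed, and at none of the 8 as higher, where 2.49% did. At cdc22 the body exceeded its neighbours by 0.39 and 0.22 in rif1Δ rad3Δ, against 1.44 and 1.06 in rif1Δ. At cdc18 the values were -0.47 and -0.72 in rif1Δ rad3Δ, against 0.13 and 0.45 in rif1Δ. Neither gene overlapped between the strains. The difference was -0.46 ± 0.12 (SE, adjusted p = 0.0777) at tos4 and -0.10 ± 0.13 (SE, adjusted p = 0.651) at cdt1. Both calls were lost with normexp, that of cdc22 without rif1Δ replicate 1 (-0.75), and that of cdc18 with one spread and without replicate 2 of either strain (-0.76 without that of rif1Δ rad3Δ, -0.72 without that of rif1Δ).

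**Figure D5:**
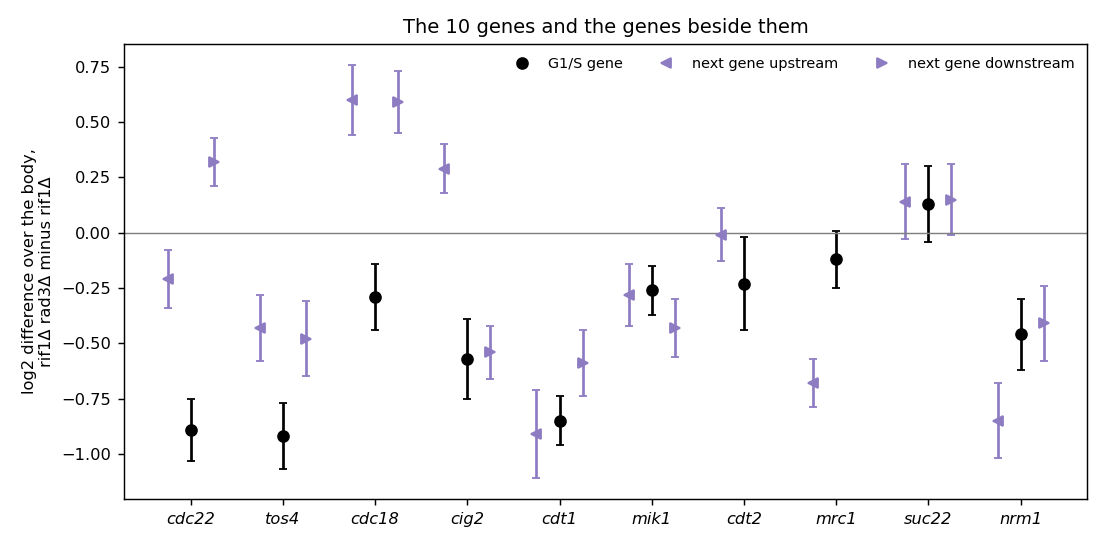
Difference between the strains over the gene body (log2, rif1Δ rad3Δ minus rif1Δ, y axis) for each of the 10 genes (black circles) and for the next protein-coding gene upstream and downstream (violet triangles), with SE bars; genes with too few probes have no point. At cdc22 the gene lies far below both neighbours, at cdc18 the neighbours lie above 0, and at cdt1 gene and neighbours are all below 0.

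Other genes of the pathway gave mixed counts over their bodies, where 12.2% of all genes were called lower and 10.7% higher. Of the 5 genes for MBF subunits and co-activators, res2 (-0.79 ± 0.12 SE, adjusted p = 0.0132) and cdc10 (-0.52 ± 0.11 SE, adjusted p = 0.0233) fell in rif1Δ rad3Δ and rep2 (0.71 ± 0.17 SE, adjusted p = 0.0287) rose. Res2 is a DNA-binding subunit, Cdc10 the core subunit and Rep2 a co-activator. Of 11 further G1/S-periodic genes 1 fell, cdc6 (-0.49), the gene of the catalytic subunit of DNA polymerase delta, none rose, and the median was -0.06. Of 20 replication initiation genes 4 fell, among them the helicase genes mcm6 (-0.82), mcm2 (-0.78) and cdc45 (-0.72), none rose, and the median was -0.03, close to the -0.04 of all genes.

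Of 9 core histone genes, whose products package the new DNA of S phase, 7 could be tested and 2 fell, hht1 (-0.95) and hta2 (-0.88), against 12.2% of all genes, while none rose, against 10.7%. The median of the 7 was -0.81, and their levels were -0.04 to 0.66 in rif1Δ rad3Δ, against 0.66 to 1.3 in rif1Δ, where 6 of the 7 passed as enriched, against 5.28% of all genes. Histone genes have near-identical copies, so a probe may read more than 1 of them.

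Other genes with the ACGCG elements shown above were counted in the same way. Of 9 other genes with 3 or more ACGCG within 250 bp, none was called over the body between the strains, with a median of 0.02. Of 129 other genes with ACGCGT there, 27 (20.9%) were called lower, against 12% of the 4718 with neither, and their median was -0.14, against -0.03. As higher, 12 of the 129 (9.3%) were called, against 10.8%. In upstream windows, 2 of the 9 (22.2%) and 11 of 128 with ACGCGT (8.59%) were called lower, against 4.84% of 4875 with neither. None of the 9 and 18 of the 128 (14.1%) were called higher there, against 17.0%. No test of these classes was made.

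By the distance over the 8 values of body and upstream on the 4 arrays, the genes most like the median of the 10, among 4822 compared, were SPAC1B3.08 (0.27), atp2 (0.30) and the ceramide synthase gene lac1 (0.31). The 10 genes themselves lay between 0.42 (mik1) and 2.82 (cdc22) from their own median. The 3 genes were picked as the nearest of 4822, so their distances cannot be set against those of the 10.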

How the data were processed

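Each array compared Rad52 ChIP (Cy3) with its input (Cy5), per the labels, with the dyes the same way round on all 4 arrays, although the design text speaks of reciprocal labelling. The labels' molecule and extraction fields speak of RNA, while their fraction field gives IP and input. Per the file headers, the arrays were read with Agilent Feature Extraction 10.7.3.1 and carry coordinates of a build named Feb2002. Ratios started from the deposited processed intensity of both channels, which per the file headers had its background subtracted and a linear dye factor applied. The normexp alternative (offset 50) started from deposited median spot and background intensity. The deposited log10 ratio was input over ChIP and was used only to check direction. The series' value table gives, per the deposited columns, a linear ratio that matched ChIP over input of the processed signals within 1% at every probe of all 4 arrays, so its scale and direction are known and it was not centred; its column medians were 0.968 and 1.01 for rif1Δ rad3Δ and 0.985 and 1.009 for rif1Δ.

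The log2 of ChIP over input was centred on each array's median over nuclear probes. Of 42641 nuclear probes (60 nt, median spacing 265 bp), 93 outliers were left out, and so were 2513 control spots, which left 42548. Genes are those of ASM294v3. Input brightness followed GC content there without a shift, except on the right arm of chromosome I, where it correlated at -0.018 without a shift and 0.285 at 6130 bp; cdc22 and mrc1 lie on that arm and were read with this shift (0.218 against 0.063 in the 20 kb around them), and coordinates printed are those of ASM294v3. Probe values were averaged over gene bodies and the 1000 bp upstream, with at least 2 probes each. No promoter table was used here, and promoter sequences were read from the reference genome.

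The model was limma's (version 3.58.1 in R 4.3.3, lmFit and eBayes) with 1 mean per strain over the 4 arrays, two-sided, with Benjamini-Hochberg adjustment over all genes at 0.05. Differences are rif1Δ rad3Δ minus rif1Δ. The fit was tested on simulated data. Summaries used Python 3.11.15. All 10 genes were named. In each of the 4 other lists, up to 3 called genes with the largest change in body difference were named. The 3 genes nearest the 10 genes' median in Euclidean distance, neighbours, and rif1 and rad3 were also named. The genes, lists and rules were chosen with earlier results of these data known. The comparison with neighbouring genes and the coding span were added after these results were seen. Alternatives covered centring, normexp, loess, one spread, the A+T trend (250 bp each side, lowess fraction 0.3), dim probes, upstream probes in other genes, 500 bp windows, the probe median, the right arm of chromosome I, the replicate number as a block, and each array left out.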

Additional observations from a re-analysis of the deposited data

Results flagged for a closer look

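At tos4 and cig2, upstream signal minus body signal differed between the strains by the test of that difference. For tos4 the difference was 0.99 and for cig2 it was 0.80, as rif1Δ rad3Δ minus rif1Δ on the log2 scale. Both arrays of rif1Δ rad3Δ were above 0 and both of rif1Δ below 0 at each gene, as they were at cdc18, where the test did not pass. The share of all genes with such a split was not computed. Both rif1Δ rad3Δ arrays lay above both rif1Δ arrays, whatever the sign, at 39.5% of all genes. What lies behind the differences at tos4 and cig2 was not tested.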

How the results depend on the processing

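No value called in the main setting changed sign under an alternative. Some values called only in other settings did cross 0. In rif1Δ rad3Δ, upstream minus body at cdt1 ranged from -0.95 to 0.08 over the settings. Calls of single genes stayed in 192 values under an alternative and were lost in 41, and values not called in the main setting passed in 45. The 192 include values that the alternative could not move, so the tally does not measure stability. Centring on the mode cancels in upstream minus body and in the comparison with neighbours. Leaving out an array of one strain leaves the mean level of the other strain unchanged. Counts of the 10 genes called were as follows. Over bodies, 3 were called between the strains, 5 with the replicate number as a block and 3 to 5 without 1 array. Upstream, 1 was called, with 2 under loess and under the block, 0 under centring on the mode, normexp, one spread and the probe median, and 0 to 2 without 1 array. For upstream minus body in rif1Δ rad3Δ, 1 was called, 0 with 500 bp upstream, normexp and one spread, 2 with loess and with the A+T trend removed, and 0 to 2 without 1 array. In rif1Δ, 1 was called, 3 with loess, 2 with normexp and one spread, and 0 to 2 without 1 array. For the strain difference of upstream minus body, 2 were called, 4 with the block, 1 with 500 bp upstream, with the probe median and with upstream probes in other genes left out, 0 with the A+T trend removed and one spread, and 0 to 2 without 1 array, and the 2 called under normexp were tos4 and cdc22, not cig2. Against neighbours, 2 were called, 4 with the block, 0 with normexp, 1 with one spread and without the right arm of chromosome I, and 1 to 2 without 1 array. Body levels in rif1Δ rad3Δ had 5 calls, 3 with normexp and one spread, and 3 to 5 without 1 array. In rif1Δ there were 3, with 6 under one spread and 2 to 6 without 1 array.

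Counts over all genes moved by more than 1.5 times in these settings. Body differences numbered 1115, with 717 under normexp, 371 with one spread, 1932 with the block and 275 to 1048 without 1 array. Upstream differences numbered 1093, with 656 under normexp, 193 with one spread, 617 without upstream probes in other genes, 352 at 500 bp, 2113 with the block and 339 to 1036 without 1 array. Upstream minus body in rif1Δ rad3Δ had 1259 calls, 290 with one spread, 762 without upstream probes in other genes, 640 at 500 bp and 574 to 1342 without 1 array, and with the A+T trend removed 416 were higher and 441 lower, against 919 and 340. In rif1Δ it had 117, with 271 under normexp, 299 under loess, 464 with one spread, 74 at 500 bp and 43 to 373 without 1 array. Its strain difference had 198, with 320 under normexp, 549 under loess, 17 with one spread, 32 without the A+T trend, 82 at 500 bp, 1203 with the block and 77 to 271 without 1 array. Against neighbours there were 180, with 70 under normexp, 329 under loess, 36 with one spread, 117 without the A+T trend, 311 without dim probes, 975 with the block and 64 to 188 without 1 array. Body levels numbered 2599 in rif1Δ rad3Δ, with 1728 under one spread, and 347 in rif1Δ, with 872 under one spread and 52 to 704 without 1 array.

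Whether the replicate numbers pair the arrays was not tested: with 2 pairs, deviations of same-numbered arrays correlated at 0.329 across genes. The replicate 1 arrays shared a slide and the replicate 2 arrays did not. The main fit left the numbers out, and the block alternative used them. With the slide as a random block no finite correlation was estimated, so that alternative was not run. An arm with 1 array left is assumed to vary like the other strain. The number of arrays limits which differences are detectable, and the cause of the changes between settings was not tested.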
